A study of Drosophila melanogaster with 4 samples.

Results

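Cytochrome P450 genes were followed in RNA from Drosophila melanogaster wing imaginal discs, the larval epithelia that give rise to the adult wing and part of the thorax. The members were the genes whose table name began with Cyp and a number, 82 in all, and the 5 ecdysone synthesis genes phm, dib, sad, shd and spo, which encode P450 enzymes under older names. These 87 names stood among 15627 named genes. One of the matched names, Cyp1, is the gene of a cyclophilin, a protein-folding enzyme that only shares the abbreviation, so it was kept apart and the P450 genes numbered 86 in 25 families. Larvae were in the third instar and grew at 25 °C, with 1 RNA library for each of 2 genotypes. In a y1 w* background the wild-type larvae carried P{Act5C-GAL4}25FO1 over the balancer chromosome CyO, y+, so wild type here means the GAL4 driver line. The Polycomb RNAi larvae carried the same y1 w* background and driver together with UAS-dsRNA Polycomb, and no balancer is named for it. The Act5C promoter drives GAL4 broadly, so the RNAi was not restricted to the disc epithelium.

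Cytochrome P450 enzymes carry a haem group and insert an oxygen atom from molecular oxygen into a substrate, using electrons passed to them by a reductase partner. The family number groups genes by sequence similarity, and insect families fall into 4 larger clans. The CYP3 and CYP4 clans hold most enzymes that act on plant toxins, insecticides, fatty acids and hydrocarbons, often in large tandem families. The CYP2 and mitochondrial clans hold the enzymes that make and degrade the moulting hormone ecdysone, which the prothoracic gland of the larva secretes and which discs receive from the blood.

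Values are FPKM, the number of sequenced fragments divided by transcript length and by library size, which are per length and can be compared between genes. Differences are log2((Polycomb RNAi FPKM + 1)/(wild-type FPKM + 1)). A gene was compared when it reached 1 FPKM in either library and is called higher or lower when the libraries were at least 2-fold apart on that scale. There is 1 library per genotype, so no value has a replicate error, no test was possible, and higher and lower describe these 2 libraries. The depth of the libraries is not given. Pc, the gene targeted by the RNAi, stood at 14.6 FPKM in wild-type discs and 13.0 FPKM with Polycomb RNAi, within 2-fold. These values neither show a knockdown nor check the labels. Reads of the transgene, which can add to the gene, cannot be told apart here. The wing disc genes vg, nub, ap, sd, wg and Dll all exceeded 10 FPKM in both libraries. Of these 6, 3 (vg, ap and Dll) were lower in Polycomb RNAi, beside 3.20% of all genes compared. In all, 5 of the 6 had the smaller value there, with nub at a difference of -0.91.

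Most P450 genes were at low levels in wing discs. In wild type 31 of 86 (36.0%) reached 1 FPKM, against 53.3% of all named genes, and in Polycomb RNAi 36 (41.9%) did, against 54.4%. Only 8 P450 genes (9.30%) reached 10 FPKM in wild type, against 40.2% of all named genes, and 7 did in Polycomb RNAi. The summed level of the 86 genes was nearly the same in the libraries, at 290.6 FPKM in wild-type discs and 283.1 FPKM with Polycomb RNAi. As a share of the summed FPKM of all named genes it was 0.0317% and 0.0287%. The summed level was concentrated in a few genes. In wild type the 5 highest genes, Cyp310a1, Cyp4e2, Cyp4d1, Cyp6v1 and Cyp6g1, held 49.9% of the sum. Of the 10 highest genes in each library, 8 were shared. The 50 genes under 1 FPKM in both libraries summed to 11.95 FPKM in wild-type discs and 13.9 FPKM with Polycomb RNAi, and 6 of them were listed at 0 in both, namely Cyp6a2, Cyp4p2, Cyp4e3, Cyp28c1, Cyp308a1 and Cyp313a1. Of the 50, 27 had the larger value in Polycomb RNAi and 17 in wild type. Among those 27 were 7 listed at 0 in wild type alone, and among those 17 were 8 listed at 0 in Polycomb RNAi alone. The smallest values above 0 were 0.0244 and 0.0347 FPKM. What level a listed 0 stands for is not known.

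**Figure D1:**
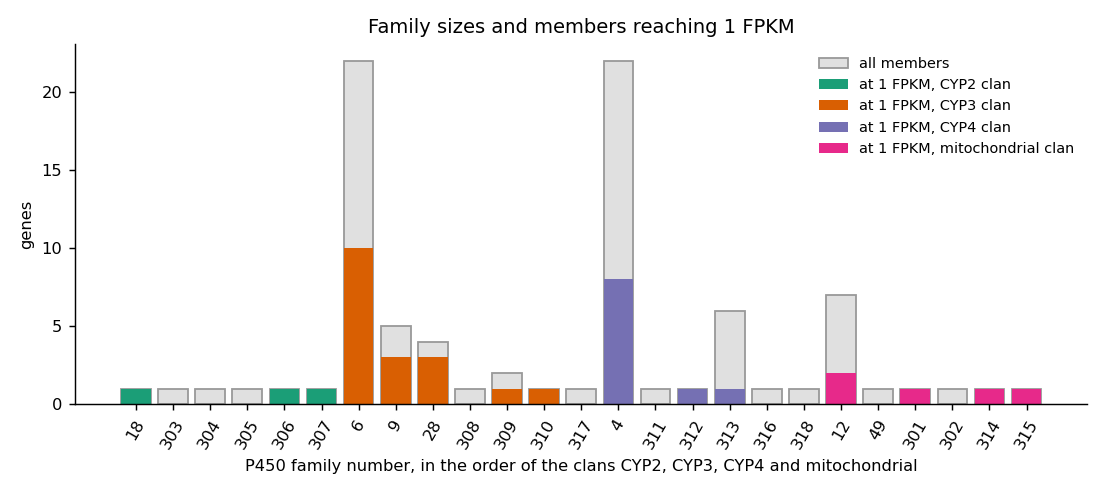
Bars give the number of genes in each P450 family (grey) and the number reaching 1 FPKM in either library (coloured by clan), with the family numbers on the horizontal axis and genes on the vertical axis. Families 4 and 6 hold 22 genes each, of which 8 and 10 reached 1 FPKM, and 10 of the 25 families had no gene at that level.

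Of the 36 P450 genes compared, 4 were higher in Polycomb RNAi and 5 were lower by 2-fold or more. Among all 8800 genes compared, 4.41% were higher, 3.20% were lower and 7.61% were called in either direction, while 25.0% of the P450 genes were called. The share called among all genes depended on level. Among genes whose higher value was at least 1 and below 5 FPKM, 5 of 19 P450 genes (26.3%) and 20.4% of all genes were called. From 5 to below 20 FPKM these were 2 of 13 P450 genes (15.4%) and 7.90% of all genes, and from 20 FPKM 2 of 4 P450 genes and 3.72% of all genes. The members had no common direction. Their median difference was 0.08, beside -0.0032 for all genes compared, with 19 above and 17 below 0. Of the 19, 5 passed the minimum through the RNAi library alone, whereas no P450 gene passed it through wild type alone. The median difference in size of the 36 P450 genes, without sign, was 0.37, beside 0.14 for all genes compared. This too depended on level. From 1 to below 5 FPKM it was smaller for P450 genes, at 0.25 beside 0.45 for all genes. It was 0.35 beside 0.15 from 5 to below 20 FPKM, and 0.80 beside 0.11 for the 4 P450 genes from 20 FPKM. RNA of whole discs was measured, so fewer cells of a type and less RNA per cell cannot be told apart.

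The higher and lower genes differed in starting level. The 4 higher genes, Cyp309a1, Cyp4g1, Cyp6d5 and phm, stood at 1.01 FPKM or less in wild type and none passed 3.52 FPKM in Polycomb RNAi. The 5 lower genes, Cyp301a1, Cyp6d2, Cyp9b2, Cyp4d1 and Cyp310a1, stood at 4.52 FPKM or more in wild type. A lower call needs at least 1 FPKM in wild type, whereas 3 of the 4 higher genes passed the minimum through the RNAi library alone. Among all genes from 1 to below 5 FPKM, 13.7% were higher and 6.63% lower. All 9 calls were unchanged when the libraries were scaled to equal summed FPKM. In both directions a pseudocount of 5 left no P450 gene called, and with a minimum of 5 FPKM the 4 higher genes and Cyp301a1 were not compared. Of the 36 genes, 5 were compared through the Polycomb RNAi library alone, being under 1 FPKM in wild type.

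**Figure D2:**
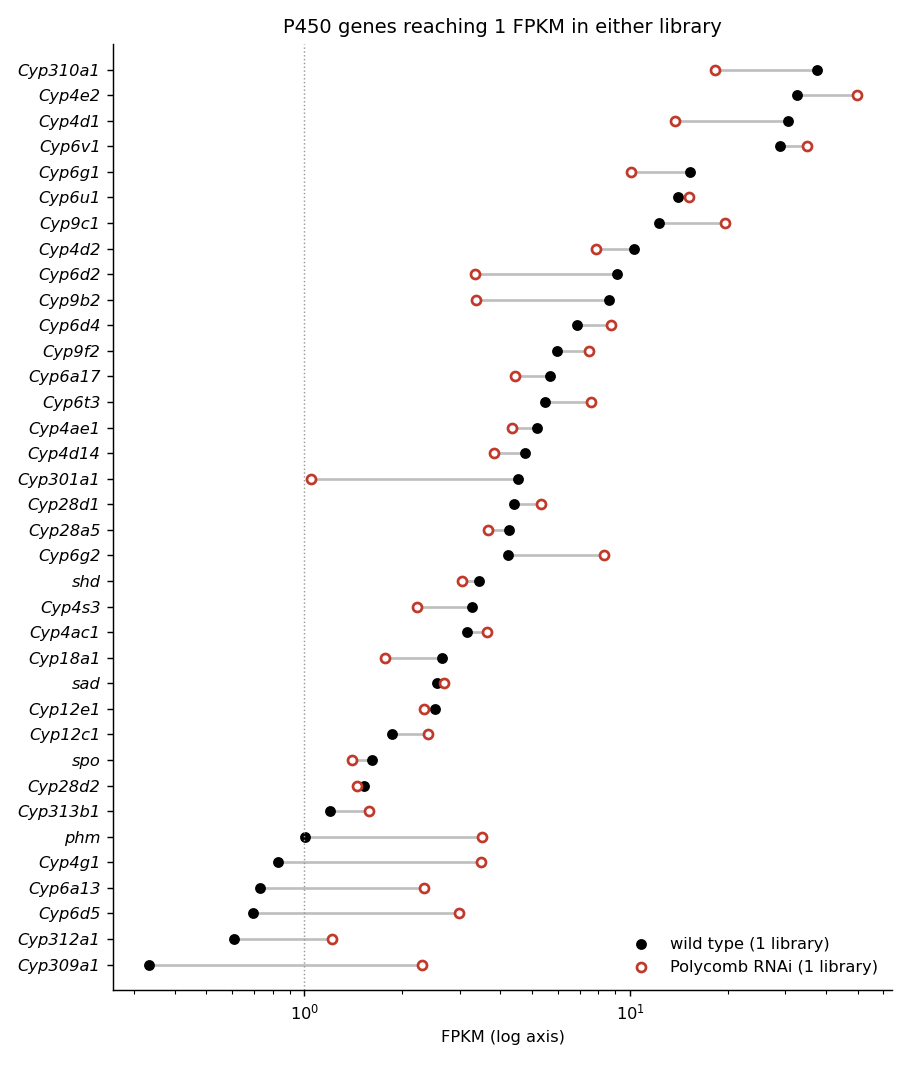
Each row is one of the 36 P450 genes that reached 1 FPKM, ordered by wild-type level, with FPKM on a log axis. Filled points are the wild-type library and open points the Polycomb RNAi library, 1 library each with no error bar, and the dotted line marks 1 FPKM. The longest lines at the bottom run to the right (Cyp309a1, Cyp6d5, Cyp4g1, phm), and Cyp301a1, Cyp6d2 and Cyp9b2 run to the left.

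In family 6, which holds many genes known for insecticide and plant toxin metabolism, 10 of 22 genes were compared, with 1 higher and 1 lower. Of all genes compared, 4.41% were higher and 3.20% lower, and from 1 to below 5 FPKM 20.4% were called. The family's summed level was 94.0 FPKM in wild-type discs and 101.7 FPKM with Polycomb RNAi, or 32.3% and 35.9% of the P450 sum. Cyp6v1, its highest gene, stood at 29.0 FPKM in wild-type discs and 34.8 FPKM with Polycomb RNAi. Cyp6g1, whose overexpression gives resistance to DDT and neonicotinoids in field strains, stood at 15.3 and 10.1 FPKM. These 2 genes and Cyp6u1, at 14.1 and 15.2 FPKM, were within 2-fold and made up most of the family's sum. The 3 compared genes of the Cyp6d group went different ways. Cyp6d2 was 9.09 FPKM in wild-type discs and 3.34 FPKM with Polycomb RNAi, 2.72-fold lower (log2 difference -1.22). Cyp6d5 was 0.696 and 2.98 FPKM, 4.28-fold higher (1.23). Cyp6d4 was 6.86 and 8.73 FPKM, within 2-fold, and was above both of them in Polycomb RNAi. Cyp6d2 was thus far above Cyp6d5 in wild type and close to it in Polycomb RNAi.

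Cyp6g2 and Cyp6a13 lay just within the 2-fold limit on the scale with the pseudocount. Cyp6g2 was 4.23 FPKM in wild-type discs and 8.33 FPKM with Polycomb RNAi, a difference of 0.84. Cyp6a13 was 0.729 and 2.32 FPKM, a ratio of 3.19 in FPKM. Its difference was 0.94, and 1.55 with a pseudocount of 0.1. Cyp6t3, reported to be needed for ecdysone production in larvae, was 5.48 and 7.58 FPKM. Cyp6a17, which has a role in temperature preference of adult flies, was 5.69 and 4.42 FPKM. The remaining 12 genes of the family stayed under 1 FPKM in both libraries. Among them were the drug-inducible genes Cyp6a2, listed at 0 in both, and Cyp6a8, at 0.0891 FPKM in wild type and listed at 0 in Polycomb RNAi, and the aggression-linked gene Cyp6a20, at 0.228 and 0.133 FPKM. The 2 inducible genes were thus at or close to 0 in both libraries.

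In the other families of the CYP3 clan, 8 of 14 genes were compared, with 1 higher and 2 lower. The shares of all genes compared were 4.41% higher and 3.20% lower. Cyp310a1 is the single gene of its family and had the highest P450 level in wild-type discs, at 37.6 FPKM. In Polycomb RNAi it stood at 18.2 FPKM, 2.06-fold lower (log2 difference -1.01), just past the limit, and ranked 4 among the P450 genes. In family 9, Cyp9b2 was 8.65 FPKM in wild-type discs and 3.37 FPKM with Polycomb RNAi, 2.57-fold lower (-1.14). The other 2 compared genes of family 9 lay the other way within 2-fold, with Cyp9c1 at 12.2 and 19.6 FPKM and Cyp9f2 at 5.98 and 7.48 FPKM. Cyp309a1 had the largest ratio of the 36 compared P450 genes, 0.332 FPKM in wild-type discs and 2.30 FPKM with Polycomb RNAi, 6.92-fold higher (1.31). It passed the minimum through the RNAi library alone. In family 28 the values were close, with Cyp28d1 at 4.41 and 5.31 FPKM, Cyp28a5 at 4.26 and 3.66 FPKM and Cyp28d2 at 1.52 and 1.45 FPKM, and all 3 compared genes were within 2-fold. The genes Cyp308a1 and Cyp317a1, single members of their families, stayed below 0.05 FPKM.

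In family 4, which includes enzymes that hydroxylate fatty acids and related chains, 8 of 22 genes were compared, with 1 higher and 1 lower. The shares of all genes compared were 4.41% higher and 3.20% lower. The summed level of the family was 93.1 FPKM in wild-type discs and 93.4 FPKM with Polycomb RNAi, but it was made up differently. Cyp4e2 was 32.6 FPKM in wild-type discs and 49.8 FPKM with Polycomb RNAi, the highest P450 level there, and within 2-fold (log2 difference 0.60). Cyp4d1 was 30.6 and 13.8 FPKM, 2.22-fold lower (-1.10), next to Cyp310a1 the nearest called gene to the limit. The differences of Cyp4e2 and Cyp4d1 between the libraries were opposite in direction and of about the same size in FPKM. Cyp4g1, which makes the cuticular hydrocarbons of the fly in oenocytes, the lipid-processing cells of the body wall, was 0.829 and 3.48 FPKM, 4.20-fold higher (1.29). Its relative Cyp4g15 stayed at 0.0244 and 0.0740 FPKM. No list of oenocyte markers was compared, so the part of these cells in the value of Cyp4g1 was not tested.

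The remaining compared genes of family 4 were all within 2-fold. Cyp4d2 was 10.3 FPKM in wild-type discs and 7.86 FPKM with Polycomb RNAi, and Cyp4ae1 was 5.18 and 4.35 FPKM. Cyp4d14 was 4.75 and 3.83 FPKM, Cyp4s3 3.28 and 2.22 FPKM, and Cyp4ac1 3.17 and 3.63 FPKM. The 14 others of the family stayed under 1 FPKM in both libraries, among them Cyp4d21, which acts in male courtship, with a listed 0 and 0.0433 FPKM. Outside family 4, the CYP4 clan was low. Of the 6 Cyp313 genes only Cyp313b1 was compared, at 1.20 and 1.58 FPKM. Cyp312a1 was 0.609 and 1.22 FPKM, a log2 difference of 0.46 that understates a ratio of 2.00. The single genes Cyp311a1, Cyp316a1 and Cyp318a1 were not above 0.25 FPKM in either library.

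**Figure D3:**
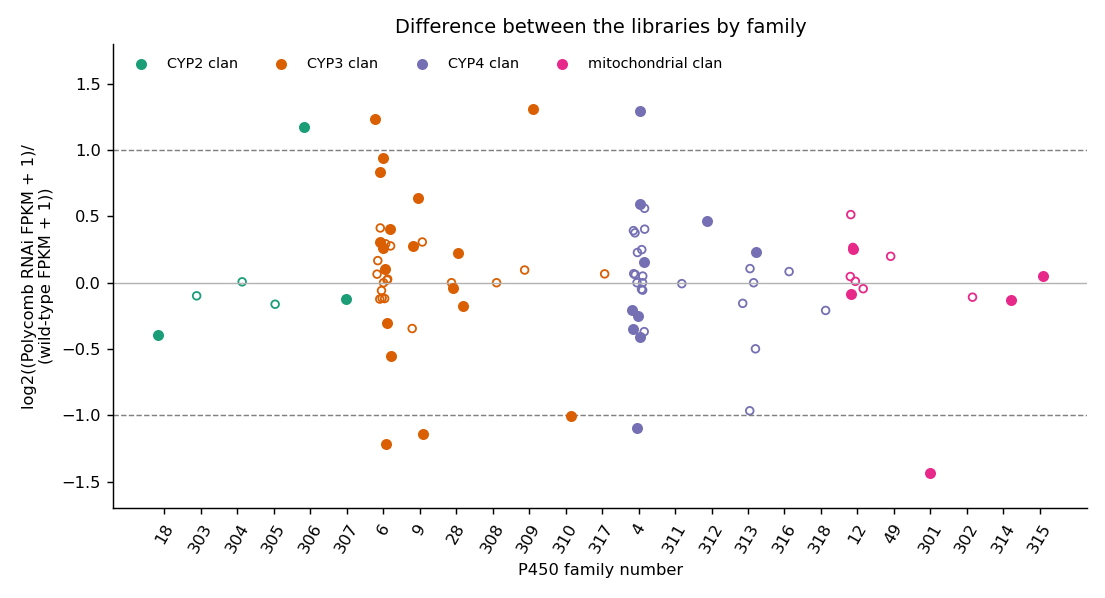
Each point is a P450 gene, placed by family number and clan on the horizontal axis and by log2((Polycomb RNAi FPKM + 1)/(wild-type FPKM + 1)) on the vertical axis, with small sideways shifts for legibility. Filled points reached 1 FPKM in either library, open points did not, and dashed lines mark 2-fold. Families 4 and 6 have filled points beyond both dashed lines, and Cyp301a1 lies lowest, at -1.43.

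In the mitochondrial clan, whose enzymes take electrons from adrenodoxin, 5 of 12 genes were compared and 1 was lower, beside 3.20% of all genes. Cyp301a1, which is needed for formation of the adult cuticle, was 4.52 FPKM in wild-type discs and 1.05 FPKM with Polycomb RNAi. This was 4.32-fold lower (log2 difference -1.43), the largest difference of any P450 gene on this scale, while Cyp309a1 had the larger ratio in FPKM. In family 12, which includes insecticide-inducible genes, Cyp12e1 was 2.52 and 2.33 FPKM and Cyp12c1 1.86 and 2.40 FPKM, and the other 5 genes stayed under 1 FPKM. The highest of these 5 in wild type were the neighbours Cyp12a5, at 0.816 and 0.830 FPKM, and Cyp12a4, at 0.648 and 0.703 FPKM, 2 close pairs of values. Cyp49a1 was 0.279 and 0.468 FPKM. The copies Cyp12d1-p and Cyp12d1-d are nearly identical and can share reads, so their values, all under 0.3 FPKM, are uncertain.

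The 5 ecdysone synthesis P450 genes were low in both libraries, and of the 4 compared phm alone was called. Among all genes from 1 to below 5 FPKM, 13.7% were higher and 20.4% were called in either direction. The pathway begins with the oxygenase encoded by nvd, which acts on dietary sterol, and sro, spo and its relative spok act after it. The side chain and ring are then hydroxylated in turn by phm, dib and sad to give ecdysone, and shd converts ecdysone to its active form in target tissues. Among the early steps spo was 1.62 FPKM in wild-type discs and 1.40 FPKM with Polycomb RNAi. The relative spok, which acts in the larval gland and lies outside the naming rule, was 0.0637 and 1.03 FPKM, a ratio of 16.2. It passed the minimum through the RNAi library alone and was not called. At the next step, phm was 1.01 and 3.52 FPKM, 3.50-fold higher (log2 difference 1.17). The later gland enzymes did not share this, with dib at 0.482 and 0.374 FPKM and sad at 2.55 and 2.68 FPKM. The difference of sad was 0.05, and -0.02 once both libraries were brought to one sum. The target-tissue enzyme shd was the highest of the group in wild type, at 3.44 FPKM, and was 3.06 FPKM in Polycomb RNAi. Cyp18a1, which inactivates ecdysone and its active form, was 2.65 and 1.77 FPKM, within 2-fold. The other CYP2 clan genes, Cyp303a1, which is needed for sensory bristles, Cyp304a1 and Cyp305a1, stayed under 1 FPKM. Of 9 other genes for ecdysone synthesis and entry that are not P450 genes, 8 were found. Of these, 6 were compared and none was 2-fold apart, beside 7.61% of all genes. Those with the highest wild-type levels were the transcription factor gene woc (89.2 and 84.2 FPKM), the sterol transport gene Npc1a (44.0 and 57.3 FPKM) and ecd (28.8 and 31.5 FPKM). The gland-restricted oxygenase gene nvd was 0.365 and 0.729 FPKM, and the dehydrogenase gene sro 4.33 and 4.55 FPKM.

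Many P450 genes lie in tandem. In the gene order of the Release 6 assembly, with at most 1 other protein-coding gene between, 46 of the 86 genes fell into 16 groups of neighbours, the largest with 9 genes. Arm 2R carried 34 of the 86 genes. In 7 groups some genes were compared and others were not, in 3 all were, and in 6 none was. In the group of 9 genes on 2R, Cyp6a17 alone reached 1 FPKM, at 5.69 and 4.42 FPKM, while Cyp6a23, a close paralogue beside it, was 0.615 and 0.958 FPKM, and reads shared between such copies make both values uncertain. Only 4 groups had 2 or more compared genes, and none of these held more than 1 gene at least 2-fold apart. The lower gene Cyp9b2 lies beside Cyp9b1, at 0.839 and 0.448 FPKM, and the higher gene Cyp309a1 beside Cyp309a2, listed at 0 FPKM in wild-type discs and 0.0686 FPKM with Polycomb RNAi.

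Differences of neighbours went both the same and opposite ways. On X, phm lies beside Cyp18a1, and phm was 3.50-fold higher while Cyp18a1 had a ratio of 0.669. In the group Cyp6g1, Cyp6g2 and Cyp6t3 the log2 differences were -0.55, 0.84 and 0.40. In the group Cyp4d14, Cyp4d2 and Cyp4ae1 they were -0.25, -0.35 and -0.21. Chosen after its values were seen, the group Cyp313a5, Cyp313a2 and Cyp313a3 on 3R was at 0.953, 0.114 and 0.412 FPKM in wild type, and all 3 genes were listed at 0 in Polycomb RNAi. None of these 3 reached the minimum, and strand was not recorded, so reads of overlapping genes cannot be separated.

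**Figure D4:**
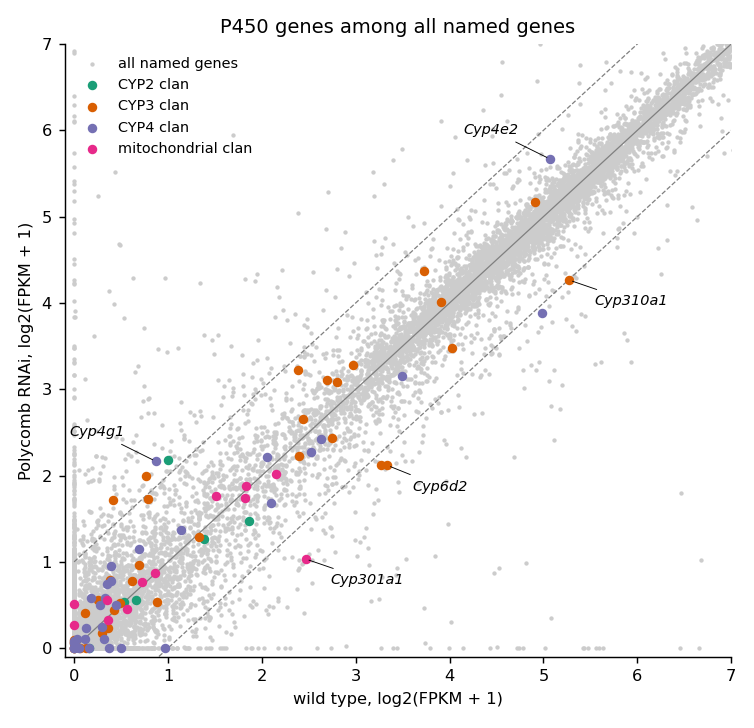
Each grey point is a named gene and each coloured point a P450 gene, with wild-type log2(FPKM + 1) on the horizontal axis and Polycomb RNAi log2(FPKM + 1) on the vertical axis, shown up to 7. The solid line marks equal values and the dashed lines 2-fold. Most P450 genes sit in the lower left, where all genes spread most, and Cyp310a1 and Cyp4d1 lie on or just past the lower dashed line at the upper end of the P450 range.

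Of 6 redox partner and cofactor genes compared, 1 was lower and none was higher, with a median difference of 0.03, beside 7.61% of all genes called. Cpr, the reductase that supplies electrons to all P450 enzymes of the endoplasmic reticulum, was 50.8 FPKM in wild-type discs and 54.3 FPKM with Polycomb RNAi, above every P450 gene in both. The cytochrome b5 gene Cyt-b5 was 152.3 and 135.3 FPKM, and Cyt-b5-r, a cytochrome b5-related gene, was 8.90 and 3.40 FPKM, 2.62-fold lower (log2 difference -1.17). The adrenodoxin-type gene Fdxh, for the mitochondrial enzymes, was 15.2 and 14.9 FPKM, and the reductase gene dare 11.5 and 12.7 FPKM. CG1319, a gene of the same ferredoxin type, was 21.6 and 29.2 FPKM, and all 6 genes exceeded 3 FPKM in both libraries. All 8 regulators of P450 and xenobiotic genes were compared. On the scale with the pseudocount none of them was 2-fold apart, beside 7.61% of all genes. In FPKM alone ss, at 6.91 and 3.32 FPKM, was 2.08-fold apart. The highest were maf-S (88.3 and 62.0 FPKM), tgo (45.0 and 43.3 FPKM) and the ecdysone receptor gene EcR (40.9 and 36.8 FPKM).

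Other detoxification families were followed beside the P450 genes. Of 21 glutathione transferase genes, which join glutathione to toxic products, 12 were compared and none was 2-fold apart, beside 7.61% of all genes, with a median of -0.34. GstE6, at 3.36 and 6.95 FPKM, was 2.07-fold apart in FPKM. The highest were GstD1 (698.1 FPKM in wild-type discs and 951.0 FPKM with Polycomb RNAi), GstS1 (482.0 and 333.5 FPKM) and GstD3 (114.7 and 78.1 FPKM). Of 17 UDP-glycosyltransferase genes 4 were compared and none was 2-fold apart, again beside 7.61% of all genes, with a median of -0.26. The highest were Ugt86Di (74.2 and 60.4 FPKM), Ugt86Da (41.4 and 37.0 FPKM) and Ugt58Fa (22.1 and 12.1 FPKM). Of 8 juvenile hormone genes 5 were compared and none was 2-fold apart, beside the same 7.61% of all genes, with a median of 0.20. The epoxide hydrolase gene Jheh2 was 205.9 and 236.4 FPKM, the response gene Kr-h1 39.4 and 51.9 FPKM, and Jheh1 9.51 and 12.3 FPKM. GstD1, GstS1, GstD3 and Jheh2 were thus above every P450 gene in both libraries.

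Markers of other larval tissues were detected and differed between the libraries. Beside the counts below, 4.41% of all genes compared were higher and 3.20% lower. From 1 to below 5 FPKM these shares were 13.7% and 6.63%. The summed level of 8 fat body markers was 4328 FPKM in wild-type discs and 2769 FPKM with Polycomb RNAi, with 1 lower. That of the 5 tracheal markers found was 618.9 and 351.0 FPKM, with 2 lower. Haemocyte markers (6 genes) summed to 25.3 and 64.2 FPKM, with 4 higher, and salivary gland markers (6 genes) to 42.7 and 139.6 FPKM, with 4 of the 5 compared higher. Muscle markers (5 genes) summed to 30.5 and 74.7 FPKM, with 3 higher, and gut markers (9 genes) to 12.7 and 13.0 FPKM, with 2 of the 6 compared lower and Amy-d listed at 0 in Polycomb RNAi. In Polycomb RNAi 6 of the 8 fat body markers and all 5 tracheal markers found had the smaller value. Single genes carried most of the fall in these 2 sums. Lsp1gamma was 1675 and 465.4 FPKM among the fat body markers, where Fbp1 was 762.4 and 801.1 FPKM and Fbp2 305.3 and 343.0 FPKM. Among the tracheal markers obst-A was 220.0 and 20.2 FPKM. For the ring gland, which contains the ecdysone-producing cells, the 6 markers summed to 28.8 and 34.5 FPKM, of which Start1 gave 23.6 and 26.2 FPKM. Of these, jhamt was listed at 0 in both libraries, tor was 0.0832 and 0.120 FPKM, and Akh, a peptide hormone gene of its endocrine cells, was 0.429 and 2.94 FPKM. Of the 6 ring gland markers 5 had the larger value in Polycomb RNAi and none had it in wild type, but of the 3 compared only Akh was called. Akh and phm were thus both higher in Polycomb RNAi, and Akh passed the minimum through that library alone. The gland genes nvd and spok also had larger values there without being called. Of these, spok passed the minimum through the RNAi library alone, and nvd was under it in both libraries. The genes dib, spo, sad, sro and Start1 differed little. The part of these tissues in the P450 differences was not tested.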

How the data were processed

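The authors deposited FPKM values for named genes, 1 column per RNA library, and no counts. Per the submitters' processing notes, the tools were Bowtie 1.0.0 and TopHat2 2.0.11 with Cufflinks, SICER and CASAVA, on build dm3; which of them made the table, with what annotation, is not stated in the sources used here. Libraries were unstranded, per the labels' protocols. FPKM is scaled to mapped fragments, so abundant transcripts shift all other values: CG41421 took 9.41% of the wild-type sum and 16.4% of the Polycomb RNAi sum. A row named by a dash was left out.

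Absolute depth is unknown. For 1159 genes with both values from 0.005 to 0.3 FPKM, the commonest ratio of Polycomb RNAi to wild type was 0.96 (19.6% of genes within 5%), which would follow if a read were worth 0.96 times as much there.

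Differences used a pseudocount of 1 and a minimum of 1 FPKM in either library, computed in Python 3.11.15 with pandas 2.3.3 and tested on simulated data. With 1 library per genotype no p-value was computed. Alternatives were a pseudocount of 0.1 or 5, no minimum or 5 FPKM, and 2 scalings. Members and lists were chosen with earlier results of these data known. The genes named were the 5 ecdysone synthesis genes, all P450 genes reaching 5 FPKM or 2-fold apart, the highest of each family with a compared gene, the 2 nearest the limit on each side, and the 3 highest and any 2-fold apart of other lists, 31 P450 genes in all. Others named were chosen after their values were seen. Gene order, arms and the Cyp306a1 synonym of phm came from a RefSeq table of the Release 6 assembly, in which all 86 symbols were matched. The H4K20me1 peak list, on dm3, was not used here, since no annotation of that build was at hand.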

Additional observations from a re-analysis of the deposited data

How the results depend on the processing

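The counts of 4 higher and 5 lower P450 genes were the same without a minimum, with the libraries scaled to equal sums and with median centring, and the same genes were called under both scalings. With a pseudocount of 0.1 Cyp6a13 was added, giving 5 higher. With a pseudocount of 5 there were 0 higher and 0 lower, against 134 higher and 107 lower among all genes. With a minimum of 5 FPKM there were 0 higher and 4 lower, against 189 higher and 186 lower among all genes, since the 4 higher genes and Cyp301a1 were then not compared. The median difference of the P450 genes was 0.0894 with a pseudocount of 0.1, 0.0526 with 5, 0.0234 without a minimum, 0.102 with a minimum of 5 FPKM and -0.0084 with libraries scaled to equal sums, a scaling that moved the median of all genes to -0.10. Under it sad alone of the 36 compared genes took the other sign, at -0.02. The number of P450 genes reaching the minimum was 47 at 0.5 FPKM and 32 at 2 FPKM, beside 36. No paired analysis was possible because each genotype has 1 library. Unknown depth leaves the precision of low values unknown, not only of those under 1 FPKM. Among all genes from 1 to below 5 FPKM 20.4% were called, against 3.72% from 20 FPKM.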

Other observations

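A further P450 gene outside the naming rule, spok, known as Cyp307a2 and the relative of spo that acts in the larval prothoracic gland, was 0.0637 FPKM in wild-type discs and 1.03 FPKM with Polycomb RNAi. The ratio was 16.2 in FPKM and the log2 difference 0.93, within 2-fold on the scale with a pseudocount of 1. It passed the minimum through the RNAi library alone and was chosen after its values were seen. In FPKM, phm and spok were the ecdysone synthesis genes more than 2-fold apart, while spo, dib, sad and shd were not.

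Cyp1, the cyclophilin gene that shares the naming pattern, stood at 1572 FPKM in wild-type discs and 1537 FPKM with Polycomb RNAi, a log2 difference of -0.03. Its level exceeded the summed level of all 86 P450 genes, which was 290.6 and 283.1 FPKM, so any sum over the 87 matched names is mostly that of Cyp1.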
